A study of Mus musculus with 9 samples.

Results

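Cap1, Ptp4a2, Zfp593, C1qtnf12 and BC018473 are 5 of the 18193 genes with a probe set of their own on the arrays, and they hold 14 of the 45037 probe sets that are not controls. They were chosen because each had shifted alike from wild type (WT) in E2A-/- and in Lyl1-/- progenitors at its brightest probe set. The direction was the same for all 5, but C1qtnf12 differed more in E2A-/- cells (log2 difference 2.10) than in Lyl1-/- cells (1.50). The 5 genes were grouped as changes seen at a single probe set, and the values below bear this out for Ptp4a2. For Zfp593 they do so in E2A-/- cells, while in Lyl1-/- cells its second probe set was also higher than in WT, by less. For C1qtnf12 they do not, since its 4 probe sets were all higher in both knockouts on average, though by little at the dimmest. In Lyl1-/- cells the rise was less sure beyond the brightest probe set. For Cap1 and BC018473 the second probe set was too dim in every genotype to show a decrease.

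The study measured gene expression in mouse bone marrow cells that lack lineage markers and carry CD117 (Kit), SCA-1 and CD135 (Flt3), a sort that enriches lymphoid-primed multipotent progenitors. There were 3 arrays from E2A-/- mice, 3 from Lyl1-/- mice and 3 from WT mice, each labelled as a biological replicate, with no treatment named. The labels give no age, strain or allele construction. E2A, encoded by Tcf3, is an E protein that activates early lymphoid genes, and Lyl1 is a haematopoietic basic helix-loop-helix protein that pairs with E proteins. Such pairs bind short DNA motifs called E boxes.

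The 5 genes have no known common pathway. Cap1 encodes a protein that binds actin monomers and, with cofilin, speeds the turnover of actin filaments. Ptp4a2 encodes PRL-2, a prenylated phosphatase that binds the CNNM magnesium transport proteins and is needed for self-renewal of mouse haematopoietic stem cells. Zfp593 encodes a small zinc finger protein whose yeast relative acts in export of the large ribosomal subunit precursor. C1qtnf12 encodes adipolin, a secreted member of the C1q and TNF related family known in mice as an insulin-sensitising hormone. BC018473 is annotated as a long noncoding RNA.

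A probe set on these arrays is a group of short probes placed toward the 3-prime end of a transcript, so probe sets of a gene can read different 3-prime ends or exons. By the maker's convention the ending _a_at marks probes shared by alternative transcripts of a gene. The ending _x_at marks probes of which some also match other sequences, and _s_at marks probes shared by several transcripts. The RefSeq gene table (GRCm38.p6) listed 4 transcripts for Cap1, 6 for Ptp4a2 (2 curated and 4 predicted), and 1 each for Zfp593, C1qtnf12 and BC018473. The probes' own sequences and positions were not used here, so which exon each probe set reads is not stated. Whether transcript forms, or sequence differences between the mice under the probes, bear on any difference between probe sets was not tested. The labels give no strain, so a strain difference could not be told apart from genotype.

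Since E2A and Lyl1 act through E boxes, the promoter windows are shown for Cap1 and Ptp4a2, the 2 members found in the RefSeq promoter table (GRCm38.p6). Each window runs from 250 bases before to 50 bases after the start site, 5′ to 3′ on the gene's strand, with matches to CANNTG on either strand in capitals. The Cap1 window is chr4:122886027-122886326 on the minus strand and the Ptp4a2 window is chr4:129820229-129820528 on the plus strand.
Cap1: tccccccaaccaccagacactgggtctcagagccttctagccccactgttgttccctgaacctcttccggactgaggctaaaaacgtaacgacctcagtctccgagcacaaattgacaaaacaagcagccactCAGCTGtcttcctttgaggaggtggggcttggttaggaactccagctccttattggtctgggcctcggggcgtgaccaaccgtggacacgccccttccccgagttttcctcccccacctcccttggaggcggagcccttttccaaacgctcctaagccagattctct
Ptp4a2: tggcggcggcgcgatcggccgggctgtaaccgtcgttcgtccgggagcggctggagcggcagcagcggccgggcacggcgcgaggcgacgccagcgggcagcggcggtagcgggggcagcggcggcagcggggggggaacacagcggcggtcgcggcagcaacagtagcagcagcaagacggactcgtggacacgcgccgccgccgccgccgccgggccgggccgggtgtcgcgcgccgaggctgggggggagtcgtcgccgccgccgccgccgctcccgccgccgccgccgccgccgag
The Cap1 window held 1 match, CAGCTG, which starts 117 bases before the start site. The Ptp4a2 window held 0 matches and had a GC content of 81.7%, against 57% for Cap1 and a median of 52.7% over all windows. Of 32851 windows of this length, 72.3% held CANNTG, 16.3% held CAGCTG and 20.2% held CAGGTG, the last 2 being special cases of the first. A match describes letters and does not show binding.

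The arrays were uneven in quality, and the targeted genes checked the labels in part. Lyl1 read 825 to 1222 on the E2A-/- arrays, 79.2 to 92.0 on the Lyl1-/- arrays and 1352 to 1443 on the WT arrays, a log2 difference of -4.01 between Lyl1-/- and WT (SE 0.165, limma adjusted p = 5.52e-05). Tcf3 read 121.4 to 192.8 in E2A-/- cells and 164.2 to 204.6 in WT cells (log2 difference -0.19, SE 0.188, limma adjusted p = 0.888). The labels do not say which part of Tcf3 the allele lacks, so the E2A-/- labels could not be checked with this probe set. The robust spread of the log2 difference at the brightest probe sets was 0.0825 between WT 1 and WT 3, against 0.193 to 0.375 for every other pair of arrays. These 2 arrays were therefore averaged and counted as 1 sample, which leaves WT with n = 2. The sort-gate genes Kit and Flt3 were present on every array (314 to 508 and 672 to 1302), and Ly6a (SCA-1) had no probe set of its own. The summed intensity of 10 mature granulocyte genes was 16165 and 18373 on E2A-/- 2 and 3 but 1213 on E2A-/- 1. It was 1331 to 2837 on the Lyl1-/- arrays and 1338 to 1521 on the WT arrays. The summed intensity of 4 mature erythroid genes was 384, 521 and 1037 on E2A-/- 1, 2 and 3, 294 to 333 on the Lyl1-/- arrays and 331 to 406 on the WT arrays. The actin 3-prime over 5-prime ratio, a measure of RNA integrity, was 10.1 on E2A-/- 2 and 10.6 on WT 2, against 2.85 to 4.23 on the other arrays. Xist, read from cells with an inactive X chromosome, was at 2001 to 2362 on E2A-/- 2, Lyl1-/- 1 and Lyl1-/- 2 and at 79.7 to 103.7 on the others, so both knockouts held arrays of either sex and WT held 1 sex.

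Over all 11951 tested genes, 0.226% passed the threshold (limma adjusted p under 0.05) in E2A-/- against WT and 0.192% in Lyl1-/- against WT. In 0.142% of genes, 17 in all, both comparisons passed in the same direction, and the 5 members are among these 17 because they were chosen so. Their differences from WT are therefore given as a description with no p-value. Both comparisons use the same WT samples, so the second is not an independent repeat of the first. In a sample of sorted cells, fewer cells that carry a transcript and less transcript per cell cannot be told apart.

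Ptp4a2 gave the clearest split between bright probe sets of a gene. Its brightest probe set, 1435129_at, read 1663, 1791 and 1870 in E2A-/- cells, 1550, 1655 and 2002 in Lyl1-/- cells and 4441, 4823 and 4744 in WT cells. No knockout array reached the WT range, and the nearest WT array stood 2.22-fold above the highest knockout array. The log2 difference from WT was -1.41 in E2A-/- cells (SE 0.112) and -1.45 in Lyl1-/- cells (SE 0.112), so that 37.7% and 36.7% of the WT level was left.

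The next probe set of the same gene, 1420613_at, read 1210, 1238 and 1287 in E2A-/- cells, 1251, 1266 and 1221 in Lyl1-/- cells and 1164, 1263 and 1203 in WT cells. WT 2 lay among the knockout arrays, and WT 1 and WT 3 lay just below all 6 of them. The log2 difference was 0.03 in both knockouts (SE 0.0591), with a 95% interval of -0.11 to 0.16 in E2A-/- cells and -0.11 to 0.17 in Lyl1-/- cells. The lower bounds lie far above the difference seen at 1435129_at. Another bright probe set, 1460707_at, read 635 to 831 in E2A-/- cells, 704 to 901 in Lyl1-/- cells and 800.5 to 893 in WT cells, with log2 differences of -0.21 and -0.10 (SE 0.139). The fourth, 1420612_s_at, read 62.4 to 81.5 on all 9 arrays, about the median intensity of an array, and tells nothing of a decrease.

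Within an array, 1435129_at stood above 1420613_at by 0.46, 0.53 and 0.54 on the log2 scale in E2A-/- cells, by 0.31, 0.39 and 0.71 in Lyl1-/- cells, and by 1.93, 1.93 and 1.98 in WT cells. A scaling factor common to all probe sets of an array cancels in this ratio, but an adjustment that varies with intensity does not. Probe sets differ in affinity, so the ratio itself is no ratio of transcript amounts, and only its change between arrays can be read. The other PRL phosphatase gene with a probe set of its own, Ptp4a3, read 182.1 to 273.8 in E2A-/- cells, 292.9 to 415.9 in Lyl1-/- cells and 223.3 to 286.7 in WT cells.

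**Figure D1:**
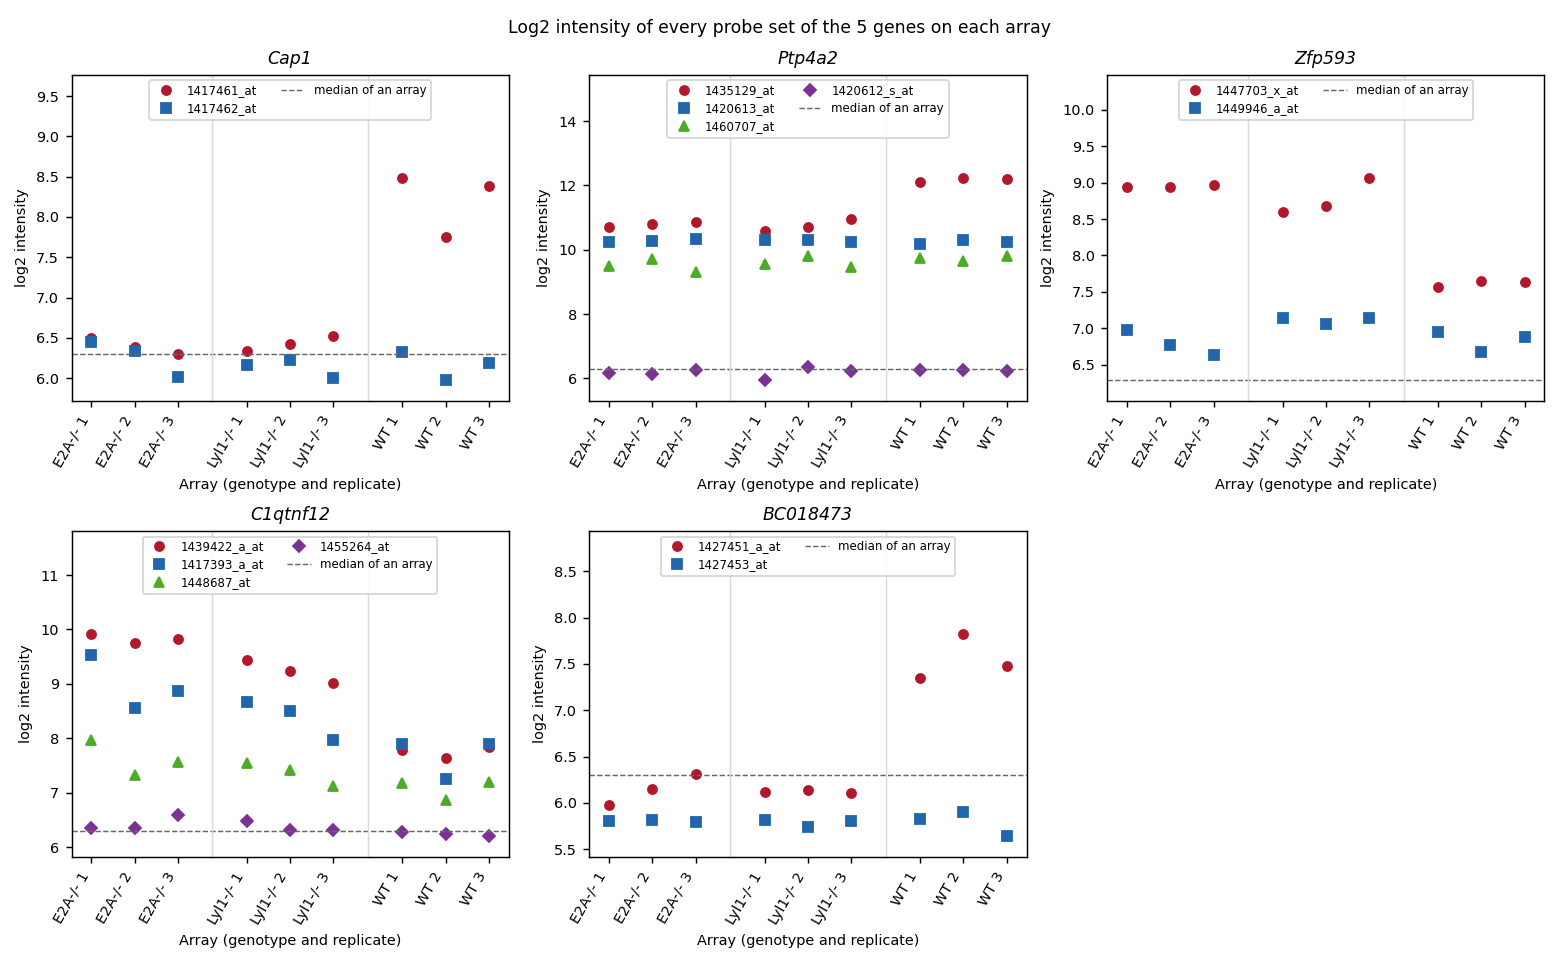
Log2 intensity (vertical axis) of the 14 probe sets of Cap1, Ptp4a2, Zfp593, C1qtnf12 and BC018473 on each of the 9 arrays (horizontal axis), with 1 point per array and the median intensity of an array as a dashed line. The brightest probe set of each gene (red circles) separates both knockouts from WT, while Ptp4a2 1420613_at stays between 1164 and 1287 on every array.

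**Figure D2:**
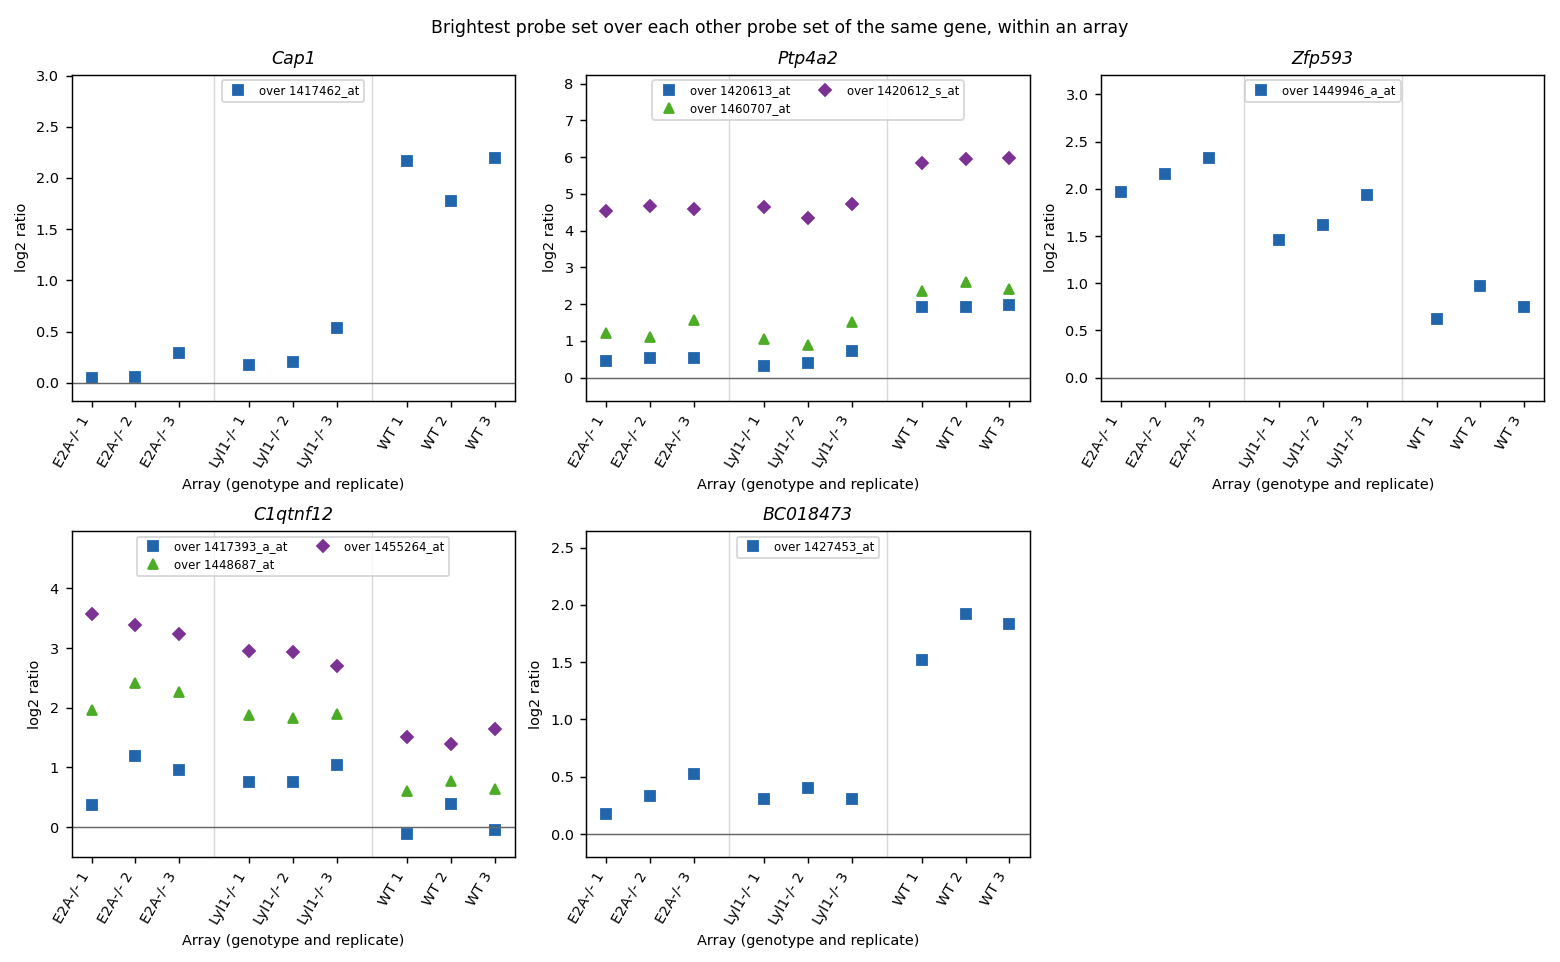
Log2 ratio of the brightest probe set to each other probe set of the same gene within an array (vertical axis), for the 9 arrays (horizontal axis), with 1 point per array. For Ptp4a2 1435129_at over 1420613_at the knockout arrays lie between 0.31 and 0.71 and the WT arrays between 1.93 and 1.98.

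Cap1 was read well by 1 of its 2 probe sets. Probe set 1417461_at read 90.2, 83.9 and 79.0 in E2A-/- cells, 80.8, 86.0 and 92.3 in Lyl1-/- cells and 358.6, 216.4 and 334.3 in WT cells. All 6 knockout arrays lay near the median intensity of an array (77.9 to 79.3), and the lowest WT array stood 2.35-fold above the highest of them. The lowest WT array was WT 2, the WT array with the high actin ratio. Whether RNA integrity bears on its level was not tested. The log2 difference from WT was -1.70 in E2A-/- and -1.67 in Lyl1-/- cells (SE 0.179). With the actin ratio as a covariate it was -1.74 and -1.80 (SE 0.155 and 0.168). With the knockout arrays at that level the size of the fall is a least estimate, and with 30 subtracted from every intensity it was -2.16 and -2.11.

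The second Cap1 probe set, 1417462_at, read 64.6 to 87.2 in E2A-/- cells, 63.9 to 74.7 in Lyl1-/- cells and 63.1 to 80.2 in WT cells. Its groups overlapped, but it was near the median of an array in WT already, so it could not have shown a decrease. Both probe sets are linked in the platform annotation to a RefSeq mRNA of Cap1. The paralogue Cap2 was dim as well (63.8 to 70.1 over the 9 arrays).

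BC018473, too, stood well above the median of an array in WT cells and about at it in the knockouts. Probe set 1427451_a_at read 62.8, 70.8 and 79.7 in E2A-/- cells, 69.4, 70.4 and 69.1 in Lyl1-/- cells and 162.4, 226.1 and 178.4 in WT cells. The knockout arrays were at or below the median of an array, except E2A-/- 3, which was just above it. The gene thus entered the tested set through its WT level. The log2 difference was -1.47 in E2A-/- and -1.49 in Lyl1-/- cells (SE 0.135), again a least estimate, and -2.03 and -2.06 with 30 subtracted from every intensity. The other probe set, 1427453_at, read 49.99 to 59.8 on all 9 arrays, close to the lowest intensities of an array (42.1 to 45.1), and gives no second reading of the gene.

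Zfp593 was higher in both knockouts at 1 probe set. Probe set 1447703_x_at read 492.4, 489.4 and 498.3 in E2A-/- cells, 388.9, 408.4 and 536.0 in Lyl1-/- cells and 189.6, 199.9 and 198.6 in WT cells. The lowest knockout array stood 1.95-fold above the highest WT array. The log2 difference was 1.32 in E2A-/- and 1.16 in Lyl1-/- cells (SE 0.128).

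The other Zfp593 probe set, 1449946_a_at, was dimmer but above the median on all 9 arrays. It read 126.3, 109.5 and 99.4 in E2A-/- cells, 141.3, 132.7 and 140.6 in Lyl1-/- cells and 123.3, 102.3 and 118.3 in WT cells. The E2A-/- arrays overlapped with WT (log2 difference 0.00, SE 0.113, 95% interval -0.26 to 0.27). The Lyl1-/- arrays lay just above WT (log2 difference 0.31, SE 0.113, 95% interval 0.05 to 0.58), by less than at the bright probe set. The platform annotation links this probe set to the RefSeq mRNA of Zfp593, and the bright one to an expressed sequence tag. Since the bright one carries the ending _x_at, part of its signal may belong to other sequences. Within an array the bright probe set stood above the other by 1.96, 2.16 and 2.33 on the log2 scale in E2A-/- cells, by 1.46, 1.62 and 1.93 in Lyl1-/- cells and by 0.62, 0.97 and 0.75 in WT cells. The annotation lists 1 transcript of Zfp593, overlapped by E130218I03Rik.

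C1qtnf12 was higher in E2A-/- cells at several probe sets. In Lyl1-/- cells it was clearly higher at its brightest probe set and less surely at the others. The brightest, 1439422_a_at, read 965, 861 and 906 in E2A-/- cells, 691, 606 and 515 in Lyl1-/- cells and 221, 199 and 230 in WT cells. The groups did not overlap, and every E2A-/- array was above every Lyl1-/- array. The log2 difference from WT was 2.10 in E2A-/- and 1.50 in Lyl1-/- cells (SE 0.125).

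Probe set 1417393_a_at read 744, 375 and 465 in E2A-/- cells, 409, 361 and 250.2 in Lyl1-/- cells and 239, 152 and 238 in WT cells, again without overlap with WT. Its log2 differences were 1.41 and 0.80 (SE 0.335), with 95% intervals of 0.63 to 2.19 and 0.02 to 1.59. Probe set 1448687_at read 249, 161 and 188 in E2A-/- cells, 188, 171 and 139 in Lyl1-/- cells and 145, 117 and 147 in WT cells, with log2 differences of 0.59 and 0.33 (SE 0.204). There the E2A-/- arrays stayed clear of WT (95% interval 0.11 to 1.06) and the Lyl1-/- arrays overlapped with it (95% interval -0.14 to 0.81). The dimmest, 1455264_at, read 81.5 to 95.9 in E2A-/- cells, 79.0 to 89.7 in Lyl1-/- cells and 73.8 to 77.3 in WT cells, which did not overlap with either knockout. Those levels are near the median of an array, and the log2 differences were 0.19 and 0.13 (SE 0.0928). Both 95% intervals, -0.03 to 0.40 and -0.09 to 0.34, held 0.

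The means of both knockouts thus lay above WT at all 4 C1qtnf12 probe sets, with differences of unequal size. In WT cells 1417393_a_at was about as bright as 1439422_a_at, yet it differed less between the genotypes. Within an array 1439422_a_at stood above 1448687_at by 1.95, 2.42 and 2.27 on the log2 scale in E2A-/- cells, by 1.88, 1.83 and 1.89 in Lyl1-/- cells and by 0.61, 0.77 and 0.64 in WT cells. At 1417393_a_at and 1448687_at the lowest E2A-/- and WT arrays were E2A-/- 2 and WT 2, the arrays with the high actin ratio. With the actin ratio as a covariate, the log2 differences at 1417393_a_at were 1.29 in E2A-/- and 0.44 in Lyl1-/- cells (SE 0.183 and 0.199). Without the covariate they were 1.41 and 0.80 (SE 0.335), so the Lyl1-/- difference and both SE were smaller with it. Without WT 2 they were 1.09 and 0.48. These fits are given as a description, and whether RNA integrity bears on these levels was not tested. The C1q and TNF related family held 2 other tested genes, C1qtnf1 and C1qtnf6, which read 80.8 to 98.1 and 85.0 to 131.7 on the 9 arrays. The other 9 genes of that list with a probe set of their own, among them Adipoq and the complement genes C1qa, C1qb and C1qc, were too dim to be tested.

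**Figure D3:**
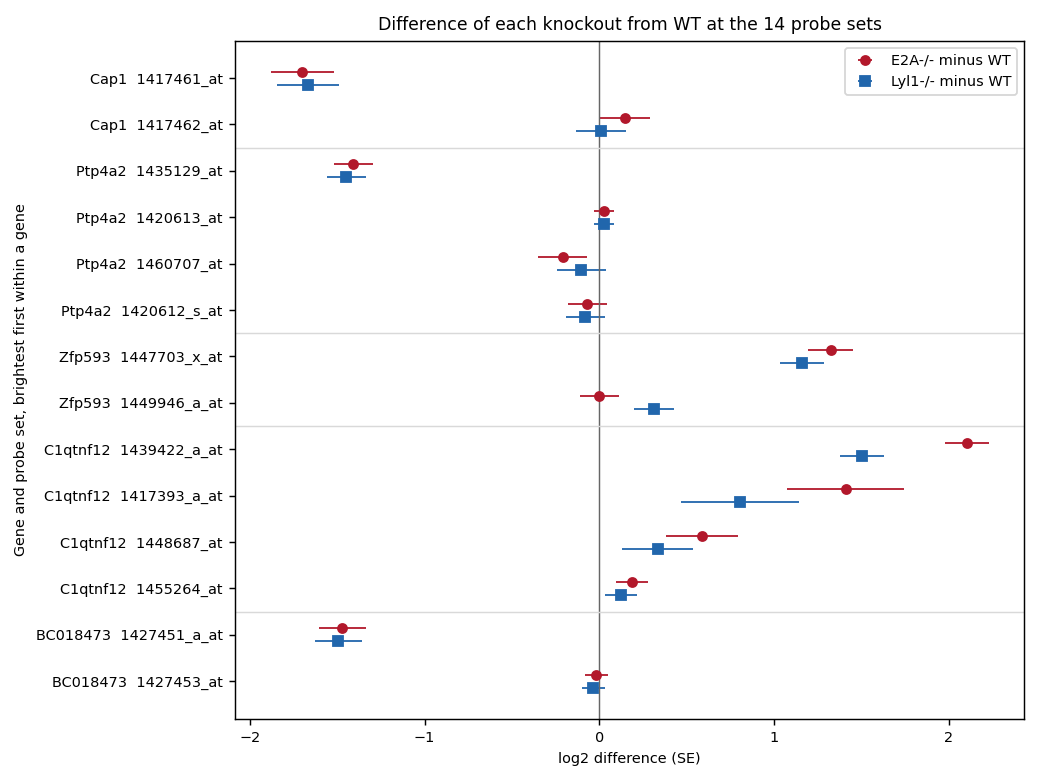
Log2 difference from WT (horizontal axis, bars are the SE of the fit) at each of the 14 probe sets (vertical axis), for E2A-/- (circles) and Lyl1-/- (squares). The 4 C1qtnf12 probe sets are all above 0, from 0.13 to 2.10, while the other probe sets of Cap1, Ptp4a2 and BC018473 lie between -0.21 and 0.15.

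Counted over all 14 probe sets, the E2A-/- arrays lay clear of the WT arrays at 8, of which 3 were lower and 5 higher, where 7.92% and 7.35% of all probe sets with 1 gene were so placed. The Lyl1-/- arrays did so at 8 as well, 3 lower and 5 higher, against 9.02% and 8.62% of all. At 7 of the 14 both knockouts were on the same side of WT, as were 5.71% of all 34945 probe sets with 1 gene, but the 5 brightest were chosen for this. Of the other 9 probe sets, 7 were above the median on at least 3 arrays.

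Of the 14, E2A-/- lay clear above Lyl1-/- at 1 (C1qtnf12 1439422_a_at) and clear below it at 1 (Zfp593 1449946_a_at), against 5.11% and 5.24% of all. Genes were taken only where both knockouts had shifted alike at these brightest probe sets, so small differences between the knockouts were largely fixed by the choice and are given with no p-value. In this contrast 0.117% of all tested genes passed the threshold, and 0 of the 5 members did (limma, with 1 at an unadjusted p under 0.05), from which nothing is read. C1qtnf12 had a log2 difference of 0.60 between the means of E2A-/- and Lyl1-/- cells (SE 0.122), a 1.52-fold higher mean, and Zfp593 one of 0.17 (SE 0.124). Ptp4a2 had a log2 difference of 0.04 (SE 0.112). For Cap1 and BC018473 the arrays of both knockouts lay about at the median of an array, so their levels cannot be ranked between the knockouts.

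The granulocyte and erythroid transcripts, the actin ratio and Xist differed among the E2A-/- arrays, and the levels of the 5 genes are given here without the arrays that stand apart. E2A-/- 1 had an actin ratio of 2.85, Xist at 84.8, a granulocyte sum of 1213 and an erythroid sum of 384, the first 3 of them near or below the values of WT 1 and 3, and it read 90.2 for Cap1, 1663 for Ptp4a2, 492.4 for Zfp593, 965 for C1qtnf12 and 62.8 for BC018473. The geometric mean of the spike controls, which are added before hybridisation, was 1045 on this array, 1522 and 2831 on the other E2A-/- arrays, 1635 to 2294 on the Lyl1-/- arrays and 1129 to 1241 on the WT arrays. With E2A-/- 1 as the only E2A-/- array, the log2 differences from WT were -1.60 for Cap1, -1.50 for Ptp4a2, 1.32 for Zfp593, 2.19 for C1qtnf12 and -1.64 for BC018473. With only the arrays that lack Xist signal, Lyl1-/- 3 differed from WT by -1.57 for Cap1, -1.23 for Ptp4a2, 1.44 for Zfp593, 1.28 for C1qtnf12 and -1.50 for BC018473.

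The stated ground for choosing the genes names no position. It does not say why these 5 were taken from the 17 genes that passed in both comparisons. Cap1, Ptp4a2, Zfp593 and C1qtnf12 are all on chromosome 4 and BC018473 is on chromosome 11, by the RefSeq gene table. Of 739 tested genes on chromosome 4, 4 passed in E2A-/- and 4 in Lyl1-/- cells against WT, 0.541% in each, and they are these 4 members in both comparisons. On the other chromosomes 23 of 11156 passed in E2A-/- cells, or 0.206%, and 19 in Lyl1-/- cells, or 0.170%. The stretch of chromosome 4 from Cap1 to C1qtnf12 holds 326 tested genes, of which 322 did not pass. Chosen genes set the ends of this stretch, so nothing is read from its share. The other 12 genes that passed in both comparisons lie on chromosomes 2, 3, 7, 10, 13, 14, 17 and X, none of them on chromosome 4.

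The nearest tested genes were taken by position, while the 5 genes were chosen for their differences from WT. That the neighbours differed less was thus largely fixed by the choice. Of 50 neighbours, 5 on each side of each gene, 0 passed in either comparison (limma; 8 in E2A-/- and 11 in Lyl1-/- cells had an unadjusted p under 0.05, or 16% and 22%, against 8.59% and 8.79% of all tested genes). Their median log2 difference was 0.04 in E2A-/- and -0.01 in Lyl1-/- cells, with a range of -0.66 to 0.77 and -0.60 to 0.68, beside a median of -0.01 and 0.00 over all tested genes. The smallest adjusted p among them was 0.177 in E2A-/- and 0.211 in Lyl1-/- cells.

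The nearest tested genes of BC018473 both stood below WT, as BC018473 did. St6galnac2 and St6galnac1 encode sialyltransferases that act on O-linked glycans. St6galnac2 stood at -0.49 in E2A-/- and -0.47 in Lyl1-/- cells (SE 0.104, limma adjusted p = 0.177 and 0.211). With an intensity trend in the variance model it passed in both (limma adjusted p = 0.017 and 0.0282), but under none of the other alternatives among the 26. St6galnac1 stood at -0.55 and -0.52 (SE 0.136, limma adjusted p = 0.242 and 0.280).

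Beside Cap1, the lysosomal thioesterase gene Ppt1, which the annotation overlaps with Cap1, stood at -0.45 and -0.57 (SE 0.138, limma adjusted p = 0.386 and 0.231). Trit1 on the other side stood at -0.14 and -0.40. Beside Ptp4a2, the RNA-binding protein gene Khdrbs1 stood at 0.71 and 0.62 (SE 0.163, limma adjusted p = 0.206 and 0.277), opposite in sign to Ptp4a2 at 1435129_at, and E330017L17Rik at -0.01 and -0.07. Beside Zfp593, Cep85 stood at 0.38 and 0.68 and Grrp1 at -0.07 and 0.00. Beside C1qtnf12, the ubiquitin-conjugating enzyme gene Ube2j2 stood at 0.00 and 0.16 and the galactosyltransferase gene B3galt6 at 0.03 and 0.09. Neither neighbour of C1qtnf12 came near its own change, for which C1qtnf12 was chosen.

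**Figure D4:**
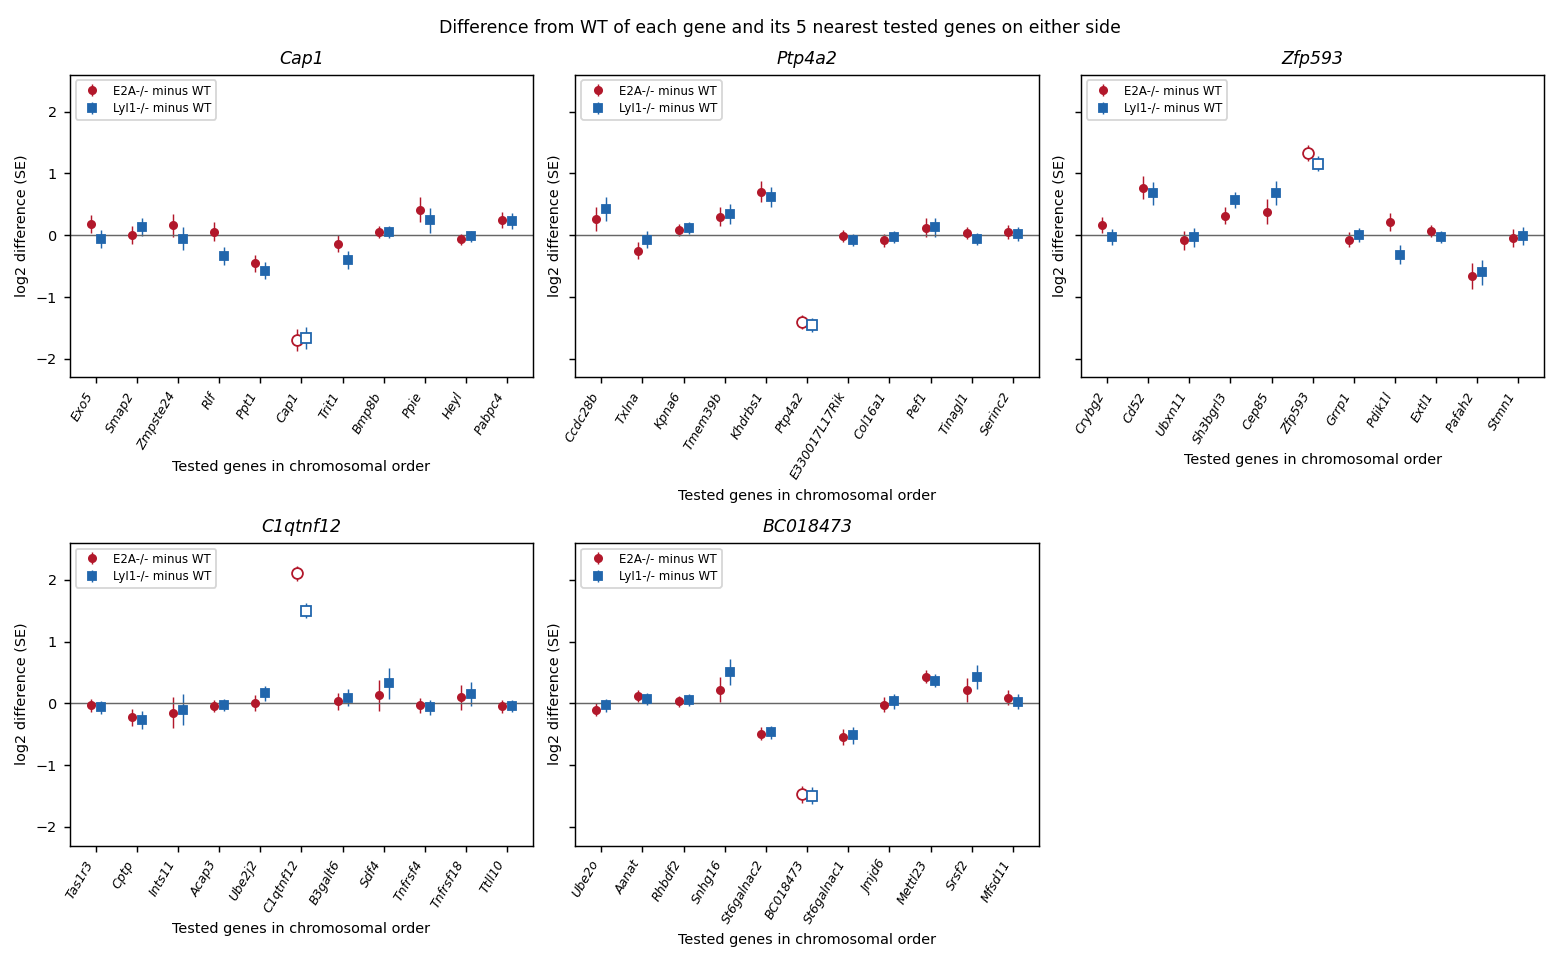
Log2 difference from WT (vertical axis, bars are the SE of the fit) of each of the 5 genes (open symbols) and of the 5 nearest tested genes on either side in chromosomal order (filled symbols), for E2A-/- (circles) and Lyl1-/- (squares). The 50 neighbours lie between -0.66 and 0.77, while the 5 genes, chosen for their differences, lie at -1.70 to -1.41 or at 1.16 to 2.10.

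The partners of these genes in their known pathways did not pass the threshold. Only 0.226% and 0.192% of all tested genes passed in E2A-/- and Lyl1-/- cells, so little can be read from this in short lists. Of 21 tested actin turnover genes beside Cap1, 0 passed in either knockout by limma. The list's median log2 difference was 0.12 in E2A-/- and 0.10 in Lyl1-/- cells. In each comparison 1 gene had a limma unadjusted p under 0.05, beside 8.59% and 8.79% of all tested genes. That 1 gene was the actin monomer binding twinfilin Twf2, at 0.46 and 0.40 (limma adjusted p = 0.343 and 0.404). Ssh2, a cofilin phosphatase gene, stood at 0.02 and -0.25, and the capping protein gene Capza2 at -0.11 and -0.18.

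Among 8 tested genes of PRL phosphatases, their CNNM partners and magnesium transport beside Ptp4a2, 0 passed by limma. A limma unadjusted p under 0.05 was found for 2 in E2A-/- and 3 in Lyl1-/- cells. Over all tested genes the shares were 8.59% and 8.79%. The medians of the list were -0.07 and -0.02. Cnnm4 stood at -0.43 and -0.32, the magnesium transporter gene Slc41a1 at -0.34 and -0.28, Ptp4a3 at -0.13 and 0.49, and Cnnm2 at 0.29 and -0.03. The limma adjusted p of these 4 genes ran from 0.399 to 0.986.

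Of 20 tested genes of large ribosomal subunit assembly and export beside Zfp593, 0 passed by limma. An unadjusted p under 0.05 was found for 2 of the 20 in E2A-/- and 3 in Lyl1-/- cells, beside 8.59% and 8.79% of all tested genes. Their medians were 0.06 in E2A-/- and 0.16 in Lyl1-/- cells, beside -0.01 and 0.00 over all tested genes. The assembly GTPase gene Gtpbp4 stood at 0.50 and 0.38, Nsa2 at 0.28 and 0.44, Sbds at 0.27 and 0.42, and Rsl24d1 at 0.18 and 0.38, with limma adjusted p from 0.328 to 0.802. Their range falls short of the difference of Zfp593 at its bright probe set, for which Zfp593 was chosen.

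The 5 genes were next compared with all tested genes for likeness of pattern, by the Pearson correlation of log2 intensity over the 8 samples. This measure rests mostly on the step between WT and both knockouts, and it is given as a description. Cap1 was most like Mtmr9, a myotubularin family gene (r = 0.982), Itpr2, a calcium channel gene (0.980), and Decr2, a peroxisomal reductase gene (0.963). Ptp4a2 was most like the imprinted gene Ndn (0.990), Mtmr9 (0.983) and Ttc3 (0.980). BC018473 was most like the zinc finger gene Zscan29 (0.994), Ifi44l (0.991) and the mitochondrial transhydrogenase gene Nnt (0.986). Zfp593 was most like Riok2 (0.976), a kinase of small ribosomal subunit maturation, then Trim34a (0.968) and 2610035D17Rik (0.947), and C1qtnf12 was most like Trim30d (0.976), Atp8b4 (0.972) and Colgalt2 (0.972). Alike in pattern did not mean alike in size, since Itpr2 stood at -0.38 and -0.36 and Colgalt2 at 0.14 and 0.11.

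Outside these genes, too, other probe sets of a gene did not always follow its brightest one. Of the other 12 genes that passed in both comparisons, 9 had another probe set above the median on at least 3 arrays. In 5 of these 9 (Glo1, Hmga2, Mtmr9, Ndn and Nnt) some other probe set moved at least 50% as far in the same direction when both knockouts were averaged. In 4 (Ifi44l, Mtm1, Trim34a and Zfp945) none did, with largest shares of 47.6%, 14.8%, -15.4% and 12.8%, so Ifi44l fell just short. The levels of the other probe sets of these 4 genes are not given here. Some may be too dim to show a change, so these 4 are not read as splits. Among the members the largest share was 61.4% for C1qtnf12, 12.7% for Zfp593, 11% for Ptp4a2 and -4.69% for Cap1, and BC018473 had no other measured probe set. The second probe set of Cap1 was too dim to show a decrease.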

How the data were processed

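The authors deposited a linear intensity for each probe set on each array, going by the range of the values. RMA and oligo are named, without version or parameter, per the submitters' processing notes. Log2 was taken without a pseudocount, where the plan had assumed log2 values. After 64 controls were left out, 34945 probe sets had 1 gene in GEO's platform annotation, 932 had several and 9160 had none. Each gene was represented by its brightest probe set, and a gene was tested where 3 or more arrays exceeded their own median. The 11951 such genes were fitted with limma 3.58.1 (lmFit, eBayes; R 4.3.3) on 8 samples with 5 residual degrees of freedom. P-values are Benjamini-Hochberg values over all tested genes, with a threshold of 0.05. Differences at single probe sets come from the same model over the 34945 probe sets with 1 gene. The code was tested on simulated data. The number of arrays limits the precision. The members, lists and tests were chosen with earlier results of these data known. Named were all probe sets of the members, the targeted genes, the nearest neighbour on each side, up to 4 list members of smallest p and the 3 most alike genes per member. Marker lists of lymphocytes and macrophages had summed intensities of 535 to 571 and 475 to 530 over the 9 arrays.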

Additional observations from a re-analysis of the deposited data

How the results depend on the processing

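All 260 values of the 5 brightest probe sets against WT under the 26 alternatives kept their direction, and 229 moved by less than the spread between samples. Part of this was fixed in advance, because the 5 genes were chosen for these differences. Some settings also cannot alter a value, such as another filter, an intensity trend or leaving out an array of the other knockout. Averaging all probe sets of a gene gave, in E2A-/- and Lyl1-/- cells, -0.78 and -0.83 for Cap1, -0.42 and -0.40 for Ptp4a2, 0.66 and 0.74 for Zfp593, 1.07 and 0.69 for C1qtnf12 and -0.74 and -0.76 for BC018473, since it averages in the still or dim probe sets. With 30 subtracted from each intensity the values were -2.16 and -2.11 for Cap1, -2.03 and -2.06 for BC018473 and 2.27 in E2A-/- cells for C1qtnf12. Without WT 1 and WT 3 they were -1.36 and -1.33 for Cap1 and -1.68 and -1.70 for BC018473. Without WT 2 and E2A-/- 2, chosen after seeing the data, they were -2.04 and -2.01 for Cap1 and -1.27 and -1.29 for BC018473. BC018473 stood at -1.64 in E2A-/- cells without E2A-/- 2 and 3. On the arrays without Xist signal, also chosen after seeing the data, Lyl1-/- stood at -1.23 for Ptp4a2, 1.28 for C1qtnf12 and 1.44 for Zfp593. Leaving out 1 array in turn gave -2.04 to -1.65 and -2.01 to -1.62 for Cap1, -1.45 to -1.36 and -1.55 to -1.37 for Ptp4a2, 1.31 to 1.35 and 1.02 to 1.25 for Zfp593, 2.01 to 2.14 and 1.40 to 1.61 for C1qtnf12 and -1.56 to -1.27 and -1.53 to -1.29 for BC018473. Of the neighbours and list members named, only St6galnac2 passed, with the intensity trend.

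The counts of called genes depended more on the settings. Against 27 genes in E2A-/- and 23 in Lyl1-/- cells against WT, 9 separate arrays gave 97 and 93, each probe set on its own 45 and 44, and an intensity trend 43 and 42. They were 10 and 15 with only the groups compared, 13 and 14 when WT 1 and WT 3 were left out, 15 and 7 with a covariate for sex, 9 and 8 when WT 2 and E2A-/- 2 were both left out, 6 and 15 with E2A-/- 1 as the sole E2A-/- array, and 0 and 0 on the arrays without Xist signal (limma, 704 and 668 at an unadjusted p under 0.05), a fit with fewer samples. The mean of probe sets gave 17 in E2A-/- and the actin covariate 12 in Lyl1-/- cells. Leaving out 1 array gave 8 to 36 and 7 to 34, with 8 and 7 lacking WT 2, 13 and 7 lacking Lyl1-/- 1, 12 and 8 lacking Lyl1-/- 2, and 15 in E2A-/- cells lacking E2A-/- 3. Between the knockouts 14 genes were called, 23 with 9 separate arrays, 9 with the actin covariate, 4 with E2A-/- 1 as the sole E2A-/- array, 3 when WT 2 and E2A-/- 2 were both left out, 0 on the arrays lacking Xist (603 at an unadjusted p under 0.05), and 3 to 21 when 1 array was left out (8 lacking E2A-/- 2, 3 lacking E2A-/- 3, 3 lacking Lyl1-/- 1 and 4 lacking Lyl1-/- 2). Arrays of the same replicate number had correlated deviations of -0.143 to 0.221, over 0.1 in 4 of 9 pairs but not in all, so the numbers were not taken as pairs. A replicate block over 9 arrays gave 60, 55 and 13 genes, against 97, 93 and 23 without it. The causes were not tested.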
